A study of Mus musculus with 9 samples.

Results

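The tumour suppressor p53 (gene symbol Trp53 in the mouse) and 9 of its direct or closely tied target genes were followed across all libraries of a study of the coactivator Yap1 in mouse embryonic stem (ES) cells. The 10 genes were chosen by symbol (Trp53, Mdm2, Cdkn1a, Ccng1, Phlda3, Perp, Trp53inp1, Zmat3, Sesn1 and Sesn2), and all 10 were found among the 18504 named genes of the deposited expression table.

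The study sequenced RNA from 9 libraries of J1 cells, an ES cell line of strain 129S4/SvJae, at passage 5 to 7. Undifferentiated cells gave 3 control libraries, each tied by its label to a different arm: BirA for overexpression, ESC for knockout and Control for knockdown. Their partners were Yap1_OE (Yap1 overexpression), Yap1_KO1 and Yap1_KO2 (labelled Yap1 knockout) and Yap1_KD1 (Yap1 knockdown), and ES cells that had been differentiated gave dESC_control and, with the knockdown, dESC_Yap1_KD1. The BirA library carries the name of a bacterial biotin ligase, and no other treatment or mutation is given for any group. The sources used here do not give the vector that drives overexpression, the knockdown reagent, the number of knockout clones or the way the cells were differentiated. No label ties the libraries to separate cultures, so the p-values may not rest on a spread between independent cultures. In the fit over all 9 libraries, that spread comes from the 3 controls and from the pair labelled as knockouts. Because each control belongs to a different arm, it also holds any difference between arms.

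p53 is a transcription factor that is kept scarce in unstressed cells because Mdm2, a ubiquitin ligase and itself a p53 target, marks it for destruction. When DNA is damaged or cells are otherwise stressed the protein is stabilised, binds a palindromic DNA element near its target genes and raises their transcription, which halts the cell cycle, removes damaged cells or adjusts metabolism. Because p53 is controlled largely at the protein level, the RNA of its targets, and not Trp53 RNA, is the usual readout of its activity. ES cells express Trp53 RNA abundantly.

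The promoter sequences of 2 members are shown because they hold the element through which p53 acts. Promoter windows from RefSeq (build GRCm38.p6, 250 bases before to 50 bases after each annotated start) were matched to 7 of the 10 genes, in 9 windows. The full p53 consensus element, 20 bases without a spacer and with at most 1 mismatch, was searched on both strands by its name. It was found in 29 of 32851 windows in the genome (0.0883%) and in 2 of the 9 member windows. In the window at the upstream of the annotated Cdkn1a starts, the element lies from 51 to 32 bases before the start, on the plus strand, and the sequence of chr17:29090868-29090977 is given first. In the Ccng1 window the element lies from 195 to 176 bases before the start, and the sequence of chr11:40755432-40755536 is written on the minus strand. Capitals mark the element in each.
Cdkn1a: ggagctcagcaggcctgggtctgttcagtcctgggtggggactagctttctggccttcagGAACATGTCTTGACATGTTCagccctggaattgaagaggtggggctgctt
Ccng1: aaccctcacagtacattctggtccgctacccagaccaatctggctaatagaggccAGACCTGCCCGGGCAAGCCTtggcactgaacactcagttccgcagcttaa
A 10-base unit of the element with no mismatch was present in 5 of the 9 member windows and in 8.36% of all windows. These are matches of letters and do not show that p53 bound there in these cells.

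Levels are given in FPKM, fragments per unit of transcript length and of library size, a scale that allows genes to be compared with each other. Yap1_KO1 was the shallowest library, at an estimated 9.20 M fragments (M for mega), and Control the deepest, at 22.3 M. The member with the fewest fragments in any library, Perp in Yap1_KO1, stood at about 79.8 fragments by that estimate, so each member was well above the detection floor. Yap1 RNA was 12.2% of control in Yap1_KD1, 16.0% in dESC_Yap1_KD1 and 2.98-fold over BirA in Yap1_OE. In the libraries labelled Yap1_KO1 and Yap1_KO2 it remained at 57.3 and 27.6 FPKM against 65.4 in ESC, so these are named by their labels only. The 9 ES cell markers summed to between 4576 and 6590 FPKM in the undifferentiated libraries, to 2174 in dESC_control and to 3273 in dESC_Yap1_KD1.

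Trp53 itself was the most abundant of the 10 genes in every library. It stood at 273 FPKM in BirA, 300.0 in ESC and 163 in Control, a mean of 245 ± 72.7 (SD, n = 3) over the undifferentiated controls. Against these it measured 281 in Yap1_OE, 268 in Yap1_KO1, 319 in Yap1_KO2, 162 in Yap1_KD1, 236 in dESC_control and 232 in dESC_Yap1_KD1. The low values were those of both undifferentiated libraries of the knockdown arm, and within each arm the perturbed library lay close to its own control. The range over all libraries was 1.96-fold, and the controls alone spanned 1.84-fold. Where the fit without Control and Yap1_KD1 changes a call, its value is given beside that call.

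Mdm2, the ligase that limits p53, stood at 30.4, 26.5 and 39.4 FPKM in BirA, ESC and Control (mean 32.1 ± 6.60, SD, n = 3). It was highest in Yap1_OE, at 59.9, and next in dESC_control, at 51.8. Yap1_KO1 (34.0), Yap1_KO2 (27.1), Yap1_KD1 (39.6) and dESC_Yap1_KD1 (38.6) lay within or just above the range of the controls. Mdm2 thus had its high values in the library with most Yap1 and in the differentiated control.

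Cdkn1a encodes p21, the inhibitor of cyclin-dependent kinases through which p53 halts the cell cycle. Its controls spread from 22.7 FPKM in ESC over 35.6 in Control to 41.7 in BirA (mean 33.3 ± 9.73, SD, n = 3). Yap1_OE measured 28.9, Yap1_KO1 21.2, Yap1_KO2 16.3, Yap1_KD1 51.5, dESC_control 68.7 and dESC_Yap1_KD1 56.1. Both libraries labelled as knockouts lay below every control, Yap1_OE lay inside their range, and the knockdown and differentiated libraries lay above it.

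Ccng1, the cyclin G1 gene, measured 50.8 FPKM in BirA, 37.2 in ESC and 66.5 in Control (mean 51.5 ± 14.6, SD, n = 3). Its level was 81.6 in Yap1_OE, 60.7 in Yap1_KO1, 34.0 in Yap1_KO2, 52.5 in Yap1_KD1, 124 in dESC_control and 95.2 in dESC_Yap1_KD1. The 2 libraries labelled as knockouts fell on either side of ESC, and the differentiated pair stood above all undifferentiated libraries.

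Phlda3 encodes a pleckstrin-homology protein that restrains Akt. It measured 52.1, 39.3 and 36.9 FPKM in BirA, ESC and Control (mean 42.8 ± 8.14, SD, n = 3). Yap1_OE held 107, Yap1_KO1 36.3, Yap1_KO2 25.0, Yap1_KD1 31.4, dESC_control 179 and dESC_Yap1_KD1 123. The undifferentiated libraries with Yap1 reduced or labelled as knocked out all lay below the lowest control, and Yap1_OE and the differentiated pair all lay above the highest.

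Perp encodes a membrane protein that p53 induces in apoptosis and that also belongs to desmosomes, the junctions of epithelial cells. The controls were tight, at 5.77, 5.02 and 5.79 FPKM in BirA, ESC and Control (mean 5.52 ± 0.440, SD, n = 3). Levels were 19.0 in Yap1_OE, 4.45 in Yap1_KO1, 4.48 in Yap1_KO2, 3.93 in Yap1_KD1, 55.7 in dESC_control and 20.5 in dESC_Yap1_KD1. Perp had the widest range of the 10 genes, 14.2-fold, followed by Phlda3 with 7.17-fold and Cdkn1a with 4.21-fold.

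Trp53inp1, a nuclear protein that promotes p53 phosphorylation and autophagy, had the loosest controls, at 28.4 FPKM in BirA, 15.4 in ESC and 34.4 in Control (mean 26.1 ± 9.72, SD, n = 3). It measured 43.2 in Yap1_OE, 36.1 in Yap1_KO1, 20.3 in Yap1_KO2, 26.9 in Yap1_KD1, 34.1 in dESC_control and 37.1 in dESC_Yap1_KD1. Yap1_OE, dESC_Yap1_KD1 and Yap1_KO1 lay above the controls, and the other 3 lay inside their range.

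Zmat3, a zinc-finger RNA-binding protein, had the smallest spread between controls of all members on the log2 scale, at 13.9 FPKM in BirA, 15.6 in ESC and 14.2 in Control (mean 14.5 ± 0.904, SD, n = 3). Yap1_OE measured 22.8, Yap1_KO1 21.9, Yap1_KO2 19.0 and Yap1_KD1 12.6. The differentiated pair was nearly equal, at 29.0 in dESC_control and 29.1 in dESC_Yap1_KD1.

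The sestrins Sesn1 and Sesn2 are stress-induced inhibitors of the growth kinase complex mTORC1, and their levels are given side by side. Sesn1 was at 7.45 FPKM in BirA, 7.30 in ESC and 11.5 in Control (mean 8.76 ± 2.40, SD, n = 3), with 5.86 in Yap1_OE, 9.91 in Yap1_KO1, 10.9 in Yap1_KO2, 13.1 in Yap1_KD1, 4.02 in dESC_control and 4.93 in dESC_Yap1_KD1. Sesn2 was at 36.3, 40.9 and 23.3 FPKM in BirA, ESC and Control (mean 33.5 ± 9.09, SD, n = 3), with 53.9 in Yap1_OE, 51.5 in Yap1_KO1, 42.9 in Yap1_KO2, 25.6 in Yap1_KD1, 60.9 in dESC_control and 85.2 in dESC_Yap1_KD1. Sesn1 was the only member whose 2 lowest values were those of the differentiated pair, and Sesn2 had its 2 highest there.

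**Figure D1:**
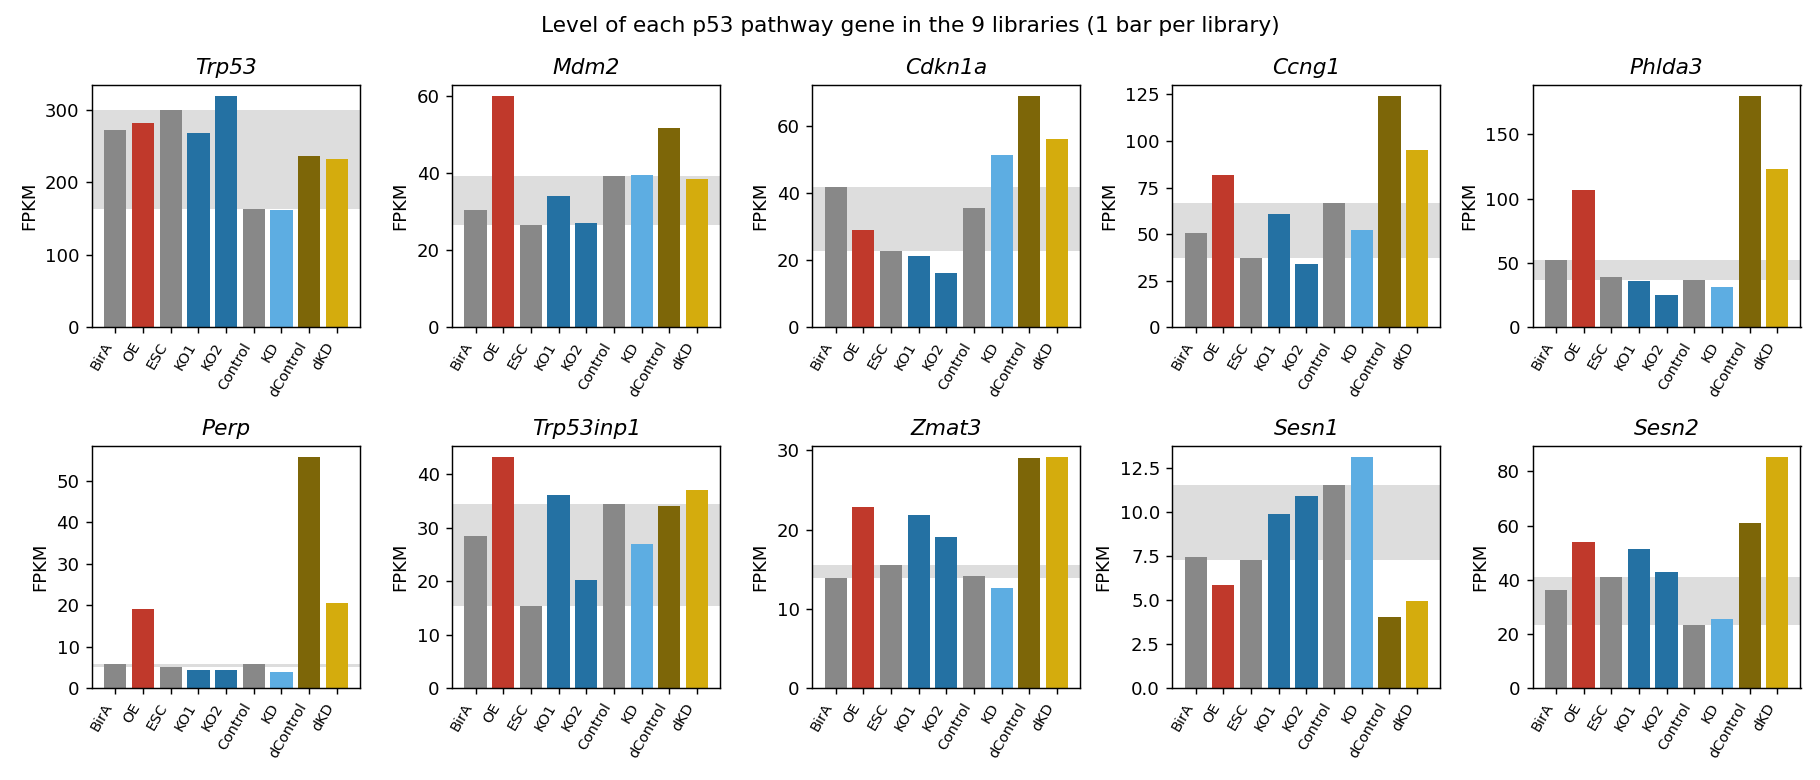
Level of each gene in FPKM (vertical axis, linear and from 0) in the 9 libraries, 1 bar per library, with the range of the 3 undifferentiated controls as a grey band. Perp, Phlda3 and Ccng1 were highest in the differentiated control (55.7, 179 and 124 FPKM), and Mdm2 was highest in the overexpression library (59.9 FPKM).

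The first comparison asks what differentiation did to these genes. Perp, Phlda3 and Zmat3 rose: Perp stood 10.1-fold, Phlda3 4.19-fold and Zmat3 1.99-fold above the mean of the undifferentiated controls in dESC_control. Trp53 RNA measured 0.963 of the control mean. Of the other members, Ccng1, Cdkn1a, Sesn2, Mdm2 and Trp53inp1 had higher and Sesn1 had lower values without passing the test. These differences were tested with limma on log2(FPKM + 1), in which all libraries share an estimate of the spread and the 3 undifferentiated controls form a group, with Benjamini-Hochberg adjustment over 12871 genes and a call at an adjusted p under 0.05. Each group with a lone library is assumed to vary like the controls and the pair labelled as knockouts. In bulk RNA, fewer cells of a type and less RNA per cell cannot be told apart.

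Differentiation moved much of the transcriptome, with 24.1% of genes called and 14.5% called higher, so 3 of 10 members called higher is to be read against that share. By limma, Perp rose by a log2 ratio of 3.12 (SE 0.15, adjusted p = 0.000467), Phlda3 by 2.06 (SE 0.28, adjusted p = 0.00815) and Zmat3 by 0.95 (SE 0.15, adjusted p = 0.012). These 3 calls held in all 11 settings of the analysis, the reported fit and its alternatives. Ccng1 had a ratio of 1.29 (SE 0.43, adjusted p = 0.0862) and Cdkn1a one of 1.07 (SE 0.36, adjusted p = 0.0889). Sesn2 stood at 0.88 (adjusted p = 0.111), Mdm2 at 0.69 (adjusted p = 0.109) and Trp53inp1 at 0.45 (adjusted p = 0.564). Sesn1 had a ratio of -0.93 (SE 0.28, adjusted p = 0.0685). The Trp53 ratio was -0.01, with a 95% interval from -0.94 to 0.92. The median over the 10 members was 0.92, beside 0.0041 over all genes tested, and 8 members had a ratio above 0 against 50.3% of all genes.

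Of the uncalled members, some turned on a control library or on base composition. Without Control, or without both undifferentiated libraries of the knockdown arm, Mdm2 (0.85, adjusted p = 0.0454 and 0.0432 by limma) and Sesn1 (-0.74, adjusted p = 0.0367 and 0.0356) were called too. Cdkn1a was called without ESC (0.82, adjusted p = 0.0477), and Ccng1 once a trend with GC content had been removed from each library (1.41, adjusted p = 0.0345).

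Against the library named Control alone, with no test, Perp was 9.63-fold, Phlda3 4.86-fold and Sesn2 2.61-fold higher in dESC_control, and Sesn1 stood at 0.349 of Control. These 4 members passed a 2-fold threshold on the log2(FPKM + 1) scale, as did 23.2% of all genes. The same step taken under the knockdown, dESC_Yap1_KD1 against Yap1_KD1, used no library of the first. There Perp was 5.23-fold, Phlda3 3.93-fold, Sesn2 3.33-fold and Zmat3 2.30-fold higher, and Sesn1 stood at 0.376, beside 20.7% of all genes past the threshold. In both steps the same 4 genes (Perp, Phlda3, Sesn2 and Sesn1) passed in the same direction, and Zmat3 was 2.05-fold higher in FPKM in the first, just short of the threshold on the log2(FPKM + 1) scale. The share of all genes that passed in both steps was not counted, so this overlap has no background beside it. Markers of differentiating cells moved with these genes: the 11 listed summed to between 12.2 and 202 FPKM in undifferentiated libraries and to 1444 in dESC_control, and 6 of the 9 tested rose. The keratin genes Krt8 (486 FPKM) and Krt18 (832 FPKM) made up most of the sum in dESC_control. The 8 feeder fibroblast markers summed to between 7.73 and 40.6 FPKM in undifferentiated libraries and to 11.6 in dESC_control, with 5 of them under 1 FPKM in every library. Of the 3 tested, Thy1 fell (log2 ratio -2.25, SE 0.19, adjusted p = 0.00177 by limma), Col1a1 rose (1.69, SE 0.22, adjusted p = 0.00731) and Pdgfrb stood at -0.58 (adjusted p = 0.0885). Without Thy1 the list summed to at most 3.92 FPKM in undifferentiated libraries and to 8.22 in dESC_control. The part of either list in the p53 target values was not tested.

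Yap1 overexpression was the second comparison, and it shares its 3 controls with the first. Perp rose, standing 3.30-fold above BirA and 3.44-fold above the mean of the 3 controls. Phlda3 measured 2.05-fold, Mdm2 1.97-fold, Zmat3 1.64-fold and Ccng1 1.61-fold of BirA, and none of these passed the test. Trp53 RNA was at 1.03-fold and Cdkn1a at 0.692-fold of BirA. In Yap1_OE 7 members lay above all 3 controls (Mdm2, Ccng1, Sesn2, Perp, Phlda3, Zmat3 and Trp53inp1) and Sesn1 lay below them, where 28.8% of all genes lay above and 25.5% below.

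By limma, Perp was the sole member called, with a log2 ratio of 1.62 (SE 0.15, adjusted p = 0.0451), where 0.295% of genes were called and 0.241% called higher. Its call was close to the threshold and held in 4 of the 11 settings: the adjusted p was 0.0636 with a pseudocount of 0.1, and 0.19, 0.0718, 0.118, 0.23 and 0.231 without BirA, ESC, Control, Yap1_KO1 and Yap1_KO2. It was 0.106 without both Control and Yap1_KD1, and over all settings the ratio stayed between 1.56 and 1.77. Phlda3 had a ratio of 1.32 (SE 0.28, adjusted p = 0.195), Mdm2 of 0.90 (SE 0.26, adjusted p = 0.272) and Zmat3 of 0.62 (SE 0.15, adjusted p = 0.226). Ratios of 0.78 for Trp53inp1, 0.71 for Sesn2 and 0.69 for Ccng1 came with standard errors from 0.33 to 0.52. Cdkn1a had a ratio of -0.16, with a 95% interval from -1.07 to 0.75, and Sesn1 one of -0.48, with an interval from -1.19 to 0.23. The median over the members was 0.70, beside 0.015 over all genes, and 8 of 10 were above 0 against 51.8% of all genes. At an unadjusted p under 0.05 there were 4 members (Perp, Phlda3, Zmat3 and Mdm2) against 12.7% of genes.

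Against BirA alone, with no test, Perp and Phlda3 passed the 2-fold threshold upward, as 1.6% of all genes did (3.95% in either direction), and Mdm2 lay just under it. No member passed it between BirA and ESC (1.82% of genes) or between BirA and Control (1.63%). Between Control and ESC Trp53inp1 alone passed (4.93% of genes), at 2.23-fold in FPKM. Differentiating-cell markers summed to 202 FPKM in Yap1_OE and 29.2 in BirA. Most of each sum came from the keratin genes Krt8 (63.4 and 7.32) and Krt18 (130 and 17.5). Of the 6 markers at 1 FPKM or more in either library, 5 were higher in Yap1_OE, and Eomes was lower (1.04 and 2.40 FPKM). The epithelial keratin Krt8 rose (log2 ratio 3.27, SE 0.31, adjusted p = 0.0451 by limma, a call that held in 4 of the 11 settings). The Krt8 call was lost with a pseudocount of 0.1 (adjusted p = 0.0671), with no filter on low values (0.0564), without both Control and Yap1_KD1 (0.141), and without BirA, Control, Yap1_KO1 or Yap1_KO2 (up to 0.219). The part of these markers in the values of Perp, a gene of epithelial junctions, was not tested.

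**Figure D2:**
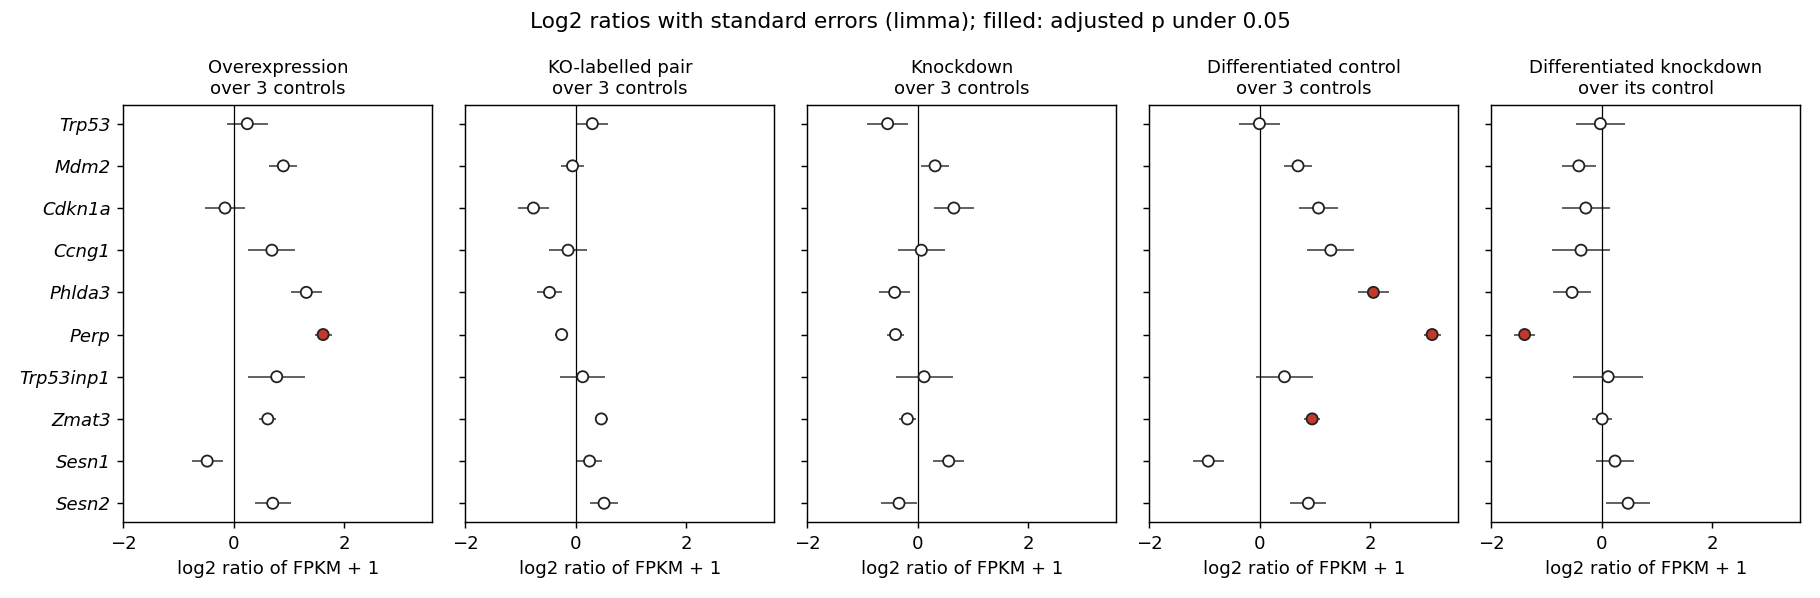
Log2 ratio of FPKM + 1 of each gene (horizontal axis) in 5 contrasts, with standard errors from limma, filled where the adjusted p was under 0.05. Perp is filled for overexpression (1.62), the differentiated control (3.12) and the differentiated knockdown (-1.40), and no member is filled for the pair labelled as knockouts or the knockdown in ES cells.

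Knockdown of Yap1 in differentiated cells was the third comparison. Perp fell, to 36.9% of dESC_control. Phlda3 measured 68.7%, Mdm2 74.5%, Ccng1 76.9% and Cdkn1a 81.6% of dESC_control, without passing the test. Zmat3 was at 100.5% and Trp53 at 98.3%, and Sesn2, at 139.9%, and Sesn1, at 122.7%, lay above their control. By limma, Perp had a log2 ratio of -1.40 (SE 0.19, adjusted p = 0.042), where 1.65% of genes were called and 1.48% called lower. The same library, dESC_control, is the perturbed side of the differentiation contrast, so both Perp calls rest on its value. The call held in 5 of the 11 settings. The adjusted p was 0.1 with a pseudocount of 0.1, 0.144 without BirA, 0.166 without Yap1_KO1 or without Yap1_KO2, 0.0657 without Control and 0.0627 without both undifferentiated libraries of the knockdown arm. Leaving out such a library changes only the estimate of the spread here, and the ratio stayed at -1.40 in those fits.

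The remaining members had wide intervals in this contrast, and Yap1 itself was not called in it (log2 ratio -2.55, SE 0.58, adjusted p = 0.14 by limma). Phlda3 had a ratio of -0.54 (SE 0.35, adjusted p = 0.702 by limma), Mdm2 of -0.42 (SE 0.31, adjusted p = 0.774) and Sesn2 of 0.48 (SE 0.40, adjusted p = 0.823). Zmat3 was the most tightly bounded, with a 95% interval from -0.46 to 0.47. In the comparison of dESC_Yap1_KD1 with dESC_control at 2-fold, with no test, Perp alone passed downward, beside 4.77% of all genes (6.48% in either direction). Markers of differentiating cells summed to 1444 FPKM in dESC_control and 206 in dESC_Yap1_KD1. Most of each sum came from Krt8 (486 and 65.3) and Krt18 (832 and 102). Of the 9 markers tested, 8 had a ratio below 0 and 1 had a ratio above 0. Krt8 fell (-2.88, SE 0.37, adjusted p = 0.0386 by limma, a call that held in 5 of the 11 settings and was lost in the same 6 as that of Perp), and ES cell markers summed to 2174 and 3273 FPKM. The part of this shift in the Perp value was not tested.

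In undifferentiated cells the knockdown gave no member called by limma, where 0.101% of genes were called. Perp stood at 67.9% of Control in Yap1_KD1 and below all 3 controls, with a log2 ratio of -0.40 against them (SE 0.15, adjusted p = 0.669), and it was the only member with an unadjusted p under 0.05 (6.40% of genes had one). Cdkn1a measured 144.5% of Control (ratio against the controls 0.65, SE 0.36, adjusted p = 0.669). Ccng1 was at 79.0%, Trp53inp1 at 78.2%, Phlda3 at 85.0% and Zmat3 at 89.2% of Control, while Mdm2, at 100.6%, and Trp53, at 99.6%, were near it. No member reached 2-fold (1.01% of genes). An uncalled value does not show that a gene was unchanged, since Yap1 itself, at 12.2% of Control, was not called in this fit (log2 ratio -3.16, SE 0.48, adjusted p = 0.587). The difference between the knockdown contrasts in differentiated and undifferentiated cells was tested as an interaction, in which 0.497% of genes and no member were called. For Perp it was -0.99 (SE 0.24, adjusted p = 0.276).

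The signs of overexpression and of the differentiated knockdown, which share no library, were set side by side. From BirA to Yap1_OE and from dESC_control to dESC_Yap1_KD1, 5 of the 10 members (Trp53, Mdm2, Ccng1, Phlda3 and Perp) were higher and then lower, a pattern held by 28.6% of 10838 genes. For Trp53 both ratios were near 0 (0.04 and -0.03). Sesn2, Trp53inp1 and Zmat3 were higher in both, Cdkn1a was lower in both, and Sesn1 was lower and then higher. Trp53, Ccng1, Phlda3 and Perp were also lower in Yap1_KD1 than in Control, a pattern held by 18.9% of genes.

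**Figure D3:**
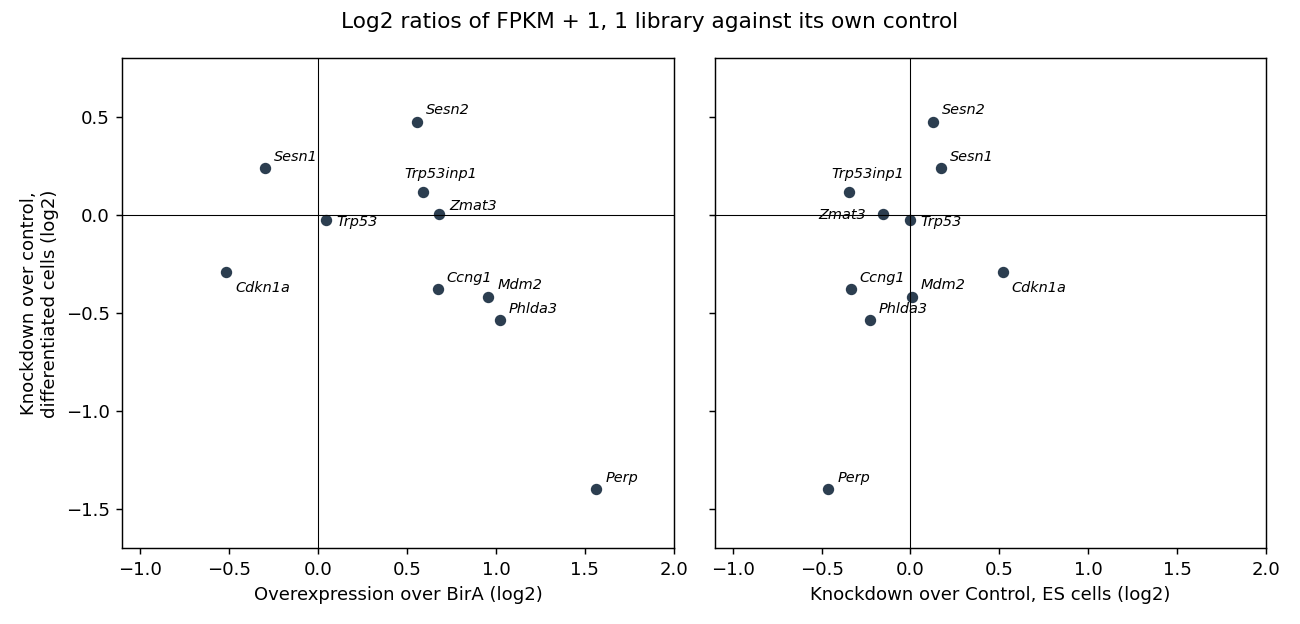
Log2 ratio of FPKM + 1 of each member in the knockdown of differentiated cells (vertical axis) against overexpression over BirA (left) and the knockdown in ES cells over Control (right), 1 library against 1, with no test. Perp lies farthest from 0 on both axes of the left panel, at 1.56 and -1.40.

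Both libraries labelled as Yap1 knockouts were set against ESC, their own control. No member was called by limma among 11538 genes, of which 0.173% were called, and Sesn1 was the only member with an unadjusted p under 0.05, against 23.1% of genes. Sesn1 measured 1.36-fold and 1.49-fold of ESC (log2 ratio 0.46, SE 0.13, adjusted p = 0.18). Zmat3 was at 1.40-fold and 1.22-fold (0.37, SE 0.14, adjusted p = 0.22), and Phlda3 at 0.925-fold and 0.636-fold (-0.37, SE 0.25, adjusted p = 0.414). The pair differed from each other for Trp53inp1, at 2.35-fold and 1.32-fold, and for Ccng1, at 1.63-fold and 0.912-fold. Trp53, at 0.894-fold and 1.06-fold, lay on either side of ESC, with a 95% interval of the ratio from -0.41 to 0.34. This fit has 1 residual degree of freedom, and ratios fell with the GC content of genes (Spearman's rho -0.588 across 11469 genes). With that trend removed, Ccng1 had a ratio of -0.03 instead of 0.28.

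Against all 3 undifferentiated controls, where 0.00777% of genes were called, the same pair again gave no called member. Cdkn1a lay below every control in both libraries (log2 ratio -0.77, SE 0.28, adjusted p = 0.209 by limma) and Zmat3 above every control in both (0.46, SE 0.12, adjusted p = 0.144). These 2 members had an unadjusted p under 0.05, as did 21.9% of genes. Against ESC alone the Cdkn1a ratio was -0.27 (SE 0.19), since ESC is the control with the least Cdkn1a RNA. Perp and Phlda3 also lay below, and Sesn2 above, all 3 controls in both libraries. Of all genes, 28.8% lay above and 28.3% below all 3 controls in Yap1_KO1, and 30.8% and 29.5% did so in Yap1_KO2. The share of genes outside in both libraries at once was not counted.

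Wider lists of the pathway gave the setting for the 10 genes. Among 16 regulators of p53 activity, 15 were tested. Chek1, the DNA damage checkpoint kinase, fell in dESC_control (log2 ratio -0.85, SE 0.18, adjusted p = 0.026 by limma) and was the only regulator called in any contrast. In dESC_control 24.1% of all genes were called, and the 1 call among 15 regulators is to be read against that share. In the other contrasts from 0.00777% to 1.65% of all genes were called. The Chek1 call was lost without BirA, Yap1_KO1 or Yap1_KO2 (adjusted p up to 0.0859). Mdm4, the partner of Mdm2 that blocks p53's activation domain, differed most between arms. It stood at 39.9 FPKM in Control and 43.1 in Yap1_KD1, between 14.3 and 20.5 in the other undifferentiated libraries, and at 9.18 in dESC_control and 12.7 in dESC_Yap1_KD1. Its high values were in the 2 libraries with the least Trp53 RNA. Cdkn2a, which encodes the Mdm2 antagonist Arf, was at 23.8 FPKM in Yap1_OE and 9.53 in BirA, but at 17.1 in Control and 22.0 in Yap1_KD1 (overexpression ratio 1.01, SE 0.70, adjusted p = 0.615).

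Of 13 other apoptosis targets 12 were tested, and 4 rose in dESC_control while none fell, where 14.5% of all genes were called higher and 24.1% in either direction. They were Casp8, the initiator caspase of death receptors (log2 ratio 1.35, adjusted p = 0.0108), Pmaip1, which encodes the BH3-only protein Noxa (1.28, adjusted p = 0.0104), the death receptor gene Tnfrsf10b (1.16, adjusted p = 0.0259) and the nuclease gene Aen (0.89, adjusted p = 0.0262), all by limma. The calls of Casp8 and Pmaip1 held in all 11 settings, and those of Tnfrsf10b and Aen were lost without BirA, Yap1_KO1 or Yap1_KO2 (adjusted p up to 0.0694 and 0.0579). The list's median was 0.52, beside 0.0041 over all genes. Bax, the pore-forming effector of mitochondrial apoptosis, stood between 287 and 400.1 FPKM in all libraries. No member of the list was called in another contrast, where from 0.00777% to 1.65% of all genes were called. Pmaip1 measured 14.1 and 13.7 FPKM in Yap1_KO1 and Yap1_KO2 and 6.81 in ESC (0.93, SE 0.12, adjusted p = 0.15).

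All 18 targets in DNA repair and metabolism were tested, and 2 were called higher and 3 lower in dESC_control, a share near the 24.1% of all genes called there. The genes called higher were Tap1, a peptide transporter of antigen presentation (2.37, adjusted p = 0.0118), and Dcxr, a sugar reductase (1.68, adjusted p = 0.0128), by limma. Fdxr, which encodes ferredoxin reductase, fell (-1.06, adjusted p = 0.0205), as did Gls2, a mitochondrial glutaminase (-0.64, adjusted p = 0.0489), and the row of Tigar, an inhibitor of glycolysis (-0.84, adjusted p = 0.0404). Tap1 and Dcxr held in all 11 settings. Without BirA, Fdxr (adjusted p = 0.0716), Gls2 and Tigar were no longer called, and the last pair was also lost without Yap1_KO1 or Yap1_KO2 (adjusted p up to 0.122 and 0.115) and with no filter on low values (0.0527 and 0.0627). Gls2 was lost as well without Control (0.0607) and without both Control and Yap1_KD1 (0.0589). No gene of the list was called in another contrast, where from 0.00777% to 1.65% of all genes were called. Ddit4, which restrains mTORC1, had the widest spread between controls, at 207 FPKM in BirA, 27.1 in ESC and 107.6 in Control, and measured 11.6 and 7.09 in the libraries labelled as knockouts.

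The 18 targets in cell cycle and growth, of which 17 were tested, held the largest log2 ratios of the 4 lists in dESC_control. In dESC_control, where 14.5% of all genes were called higher, 7 rose: Thbs1, which encodes the secreted protein thrombospondin 1 (log2 ratio 6.42, adjusted p = 0.000178), Igfbp3, which binds insulin-like growth factors (5.60, adjusted p = 0.000337), Sfn, the 14-3-3 sigma gene (3.89, adjusted p = 0.00237), Gadd45g (3.03), Plk2 (2.94), Gadd45b (2.84) and Rprm (1.46), by limma. Klf4, also an ES cell factor, fell (-3.24, adjusted p = 0.000866). Thbs1 was the only gene of the list called under overexpression (0.295% of all genes were), where it rose (2.77, SE 0.21, adjusted p = 0.0271). It was also the only one called under the differentiated knockdown (1.65% of all genes were), where it fell (-2.69, SE 0.26, adjusted p = 0.0204). Its levels were 7.50 FPKM in Yap1_OE, at most 0.413 in the controls, 105.9 in dESC_control and 15.6 in dESC_Yap1_KD1, so it was scarce in undifferentiated cells. The overexpression call held in 6 of the 11 settings and was lost with a pseudocount of 0.1 (adjusted p = 0.14) and without BirA, ESC, Yap1_KO1 or Yap1_KO2 (up to 0.174). The knockdown call held in 7 and was lost with a pseudocount of 0.1 (adjusted p = 0.36) and without BirA, Yap1_KO1 or Yap1_KO2 (up to 0.1). In dESC_control the calls of Thbs1, Igfbp3, Sfn, Plk2, Gadd45b, Rprm and Klf4 held in all 11 settings, and that of Gadd45g held in 5. It was lost with a pseudocount of 0.1 (adjusted p = 0.0787), with no filter on low values (0.0755), without both Control and Yap1_KD1 (0.066), and without Yap1_KO1, Yap1_KO2 or Control (up to 0.0783). In the differentiated knockdown 16 of the 17 had a ratio below 0, as did 50.8% of all genes, with a median of -0.56 beside -0.0056 over all genes. Among the 16 were Sfn (-2.34, adjusted p = 0.0836 by limma) and Igfbp3 (-1.65, adjusted p = 0.0677). The library dESC_control is the control here and the perturbed side of the differentiation contrast, so the rises there and these lower ratios rest on the same values. None of the 4 lists held a called gene in the knockdown of undifferentiated cells, where 0.101% of all genes were called. The same held for the libraries labelled as knockouts, where 0.00777% were called against all controls and 0.173% against ESC. Lists of this size would hold few or no calls at such shares.

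**Figure D4:**
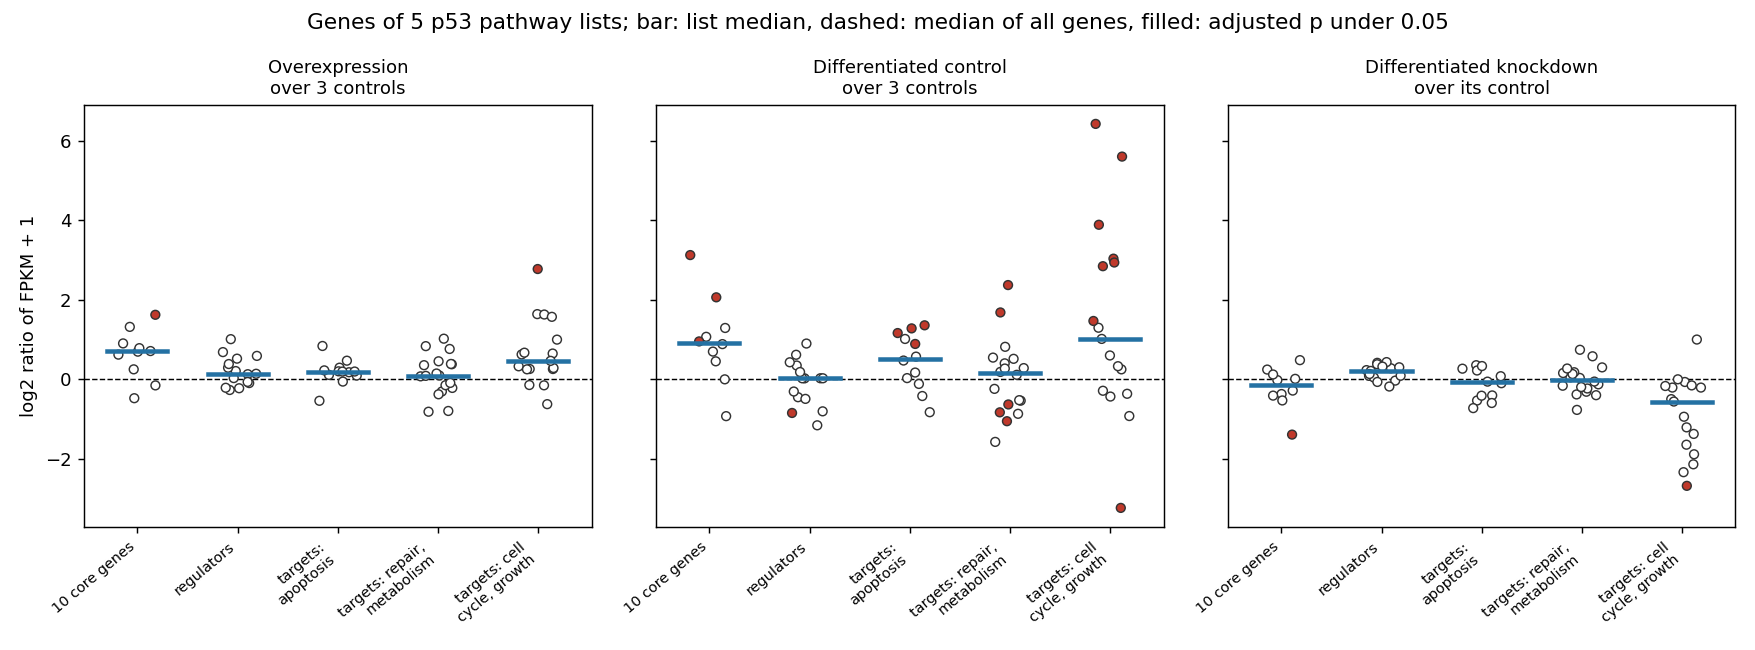
Log2 ratios of FPKM + 1 (vertical axis) of the 10 genes and of 4 wider p53 lists in 3 contrasts, 1 point per gene, with the median of each list as a bar and that of all genes as a dashed line. Filled points passed an adjusted p under 0.05 by limma, and in the differentiated control the cell cycle and growth list spans from -3.24 (Klf4) to 6.42 (Thbs1).

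The genes with the profile most like Cdkn1a and Mdm2 over the 9 libraries were found among 8288 genes by the root mean square difference of centred log2(FPKM + 1) values. For Cdkn1a these were Arrdc1 (0.17), Grina (0.21) and Klc3 (0.23), where Cdkn1a itself varied by 0.65 about its own mean. Arrdc1 stood lowest in Yap1_KO2, at 2.35 FPKM, and highest in dESC_control, at 12.5, as Cdkn1a did. For Mdm2, which varied by 0.37, they were the thiamine transporter gene Slc19a2 (0.15), Mpzl1 (0.16) and Zfp365 (0.18). Zfp365 was highest in Yap1_OE, at 10.1 FPKM, as Mdm2 was, and Slc19a2 measured 38.6 there. The members themselves were left out of this search, so it cannot show whether they resemble each other. No gene of the wider p53 lists entered either set of 3. Those lists hold 16, 13, 18 and 18 genes beside the 8288 searched, so sets of 3 are too small to read anything from this.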

How the data were processed

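The authors deposited 1 table of gene-level FPKM values for 9 RNA libraries, made with TopHat2 and Cuffdiff on genome build mm9, per the submitters' processing notes. Their versions and the gene annotation are not stated there or in the labels. Of 23277 rows, 4746 blank rows and 27 rows whose symbol had become a date were left out. Columns were matched to samples by title. Depth was estimated from the steps between low FPKM values and from 229 genes of known transcript length, so it is approximate, and no count test was run.

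Tests used limma 3.58.1 (mean-variance trend) in R 4.3.3 on log2(FPKM + 1), for genes that reached 1 FPKM in any library compared, which understates ratios of low genes. The joint fit over 9 libraries has 3 residual degrees of freedom. Comparisons of 1 library with 1 give no p-value. The fits were tested on simulated data for the contrasts of the knockout-labelled pair only, which does not cover the contrasts with a lone perturbed library. GC content came from GENCODE transcripts of GRCm38, for 98.8% of genes, and promoters from RefSeq. Tables were handled with Python 3.11.15 and pandas 2.3.3, and plots drawn with matplotlib 3.10.9. Tigar is listed in the table as 9630033F20Rik.

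All 10 members and Yap1 were named. From each list up to 4 genes with the largest log2 ratio in a contrast were named. Bax, Aen, Gls2, the Tigar row, Gadd45b, Gadd45g, Plk2, Rprm and Igfbp3 fall partly outside that rule and were named after their values were seen. The members and lists were chosen with earlier results of these data known. Alternatives were a pseudocount of 0.1, no filter on low values, no small RNA rows (173), removal of a GC trend, and each undifferentiated control or knockout-labelled library left out. The fit without both undifferentiated knockdown-arm libraries, and the interaction, were chosen after seeing the data.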

Additional observations from a re-analysis of the deposited data

How the results depend on the processing

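Over all alternatives no member's called ratio changed sign. Of the member results, 903 were counted as unchanged, 38 as moved, 6 gained a call and 13 lost one. A tested ratio counted as moved only if it changed sign while uncalled, whatever its shift in size. For ratios without a test, a shift of 1 SD of the controls also counted. Some tested ratios among the 903 therefore shifted further. That of Phlda3 for the pair against all controls ranged from -0.74 to -0.21 (-0.47 as reported, SD of the controls 0.26 on the log2 scale). With a pseudocount of 0.1, members called were 0 for overexpression and 0 for the differentiated knockdown (1 each as reported), and genes called were 17 and 47 in place of 38 and 213, and 34 in place of 64 for the interaction. Genes past 2-fold then numbered 917 for overexpression over BirA, 241 for the knockdown in ES cells, 1225 for the differentiated knockdown, 473 for BirA over ESC, 1183 for Control over ESC and 457 for BirA over Control, in place of 458, 120, 768, 210, 582 and 192. Without a filter on low values, genes called were 128 for overexpression, 94 for the knockdown in ES cells (13 as reported), 668 for the differentiated knockdown, 455 for the interaction and 0 for the knockout-labelled pair against ESC (20 as reported) and against all controls (1 as reported). Without small RNA rows they were 48 for that pair against ESC, 0 for the knockdown in ES cells and 2 for the interaction, and 52 genes passed 2-fold in the knockdown in ES cells. With the GC trend removed, 39 genes were called for the pair against ESC, and 0 members passed 2-fold between Control and ESC in place of 1. Without both undifferentiated knockdown-arm libraries, called genes were 17 for overexpression, 2 for the pair against all controls and 125 for the differentiated knockdown, and members called were 0 for overexpression, 0 for the differentiated knockdown and 5 for dESC_control.

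Each undifferentiated control and each library labelled as a knockout was left out in turn, while the lone perturbed and differentiated libraries stayed in every such fit. Genes called were then from 11 to 23 for overexpression (members from 0 to 0), from 1 to 9 for the pair against all controls and from 14 to 22 for the knockdown in ES cells. They were from 1702 to 4072 for the differentiated control (members from 3 to 5), from 25 to 157 for the differentiated knockdown (members from 0 to 1) and from 35 to 45 for the interaction. The cause of these shifts was not tested, beyond the fewer residual degrees of freedom that fewer libraries leave. No paired analysis was possible because the groups compared share fewer than 2 replicate numbers.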
